A study of Homo sapiens with 6 samples.

Results

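Aminoacyl-tRNA synthetases are the enzymes that load each amino acid onto its tRNA. The set described here was a list of 38 gene symbols. They were chosen by name and not by a cut on measured values, though earlier results of these data were known. The list held 20 enzymes of the cytosol and 16 enzymes of mitochondria, whose symbols end in 2. It also held AIMP1 and AIMP2, scaffold proteins that hold several cytosolic enzymes together. A row was matched for 37 of the 38, and all 37 passed the filter on low counts, among 19433 genes tested of 33835 with values. The level of SARS2 is not analysed here. The 6 libraries came from DU145, an established line of human prostate cancer cells, grown in DMEM with fetal calf serum and antibiotics. Cells of 3 libraries (shE6AP) were transduced with a short hairpin against E6AP, the HECT-domain ubiquitin ligase encoded by UBE3A. Cells of the other 3 (wobble) carried a hairpin that the labels call a control against E6AP. Knockdown was induced with doxycycline at 0.2 µg/ml over 2.5 days, a treatment listed for all 6 libraries. The study asked which genes E6AP regulates at the transcript level. The labels do not say whether the cells were pools or clones or whether libraries of a group came from separate cultures. The p-values therefore measure the spread between these libraries, which may be technical.

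Most synthetases recognise 1 amino acid and its tRNAs, and the charged tRNA then enters the ribosome. Cells keep separate enzymes for the cytosol and for mitochondria, which translate their own few transcripts, and both kinds are encoded in the nucleus. The cytosolic enzymes fall into class I and class II by the fold of the catalytic domain, and several of them assemble with scaffold proteins into a large complex. EPRS joins the glutamyl and prolyl enzymes in 1 chain, FARSA and FARSB are the subunits of 1 enzyme, and the genes GARS and KARS also encode the mitochondrial forms. When amino acids run short, uncharged tRNA activates the kinase GCN2, and the transcription factor ATF4 is then made. Genes of many cytosolic synthetases are known ATF4 targets.

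Reads assigned to genes ran from 21558506 to 30488217 per library. The hairpin target UBE3A stood at 14.2, 14.5 and 15.0 CPM in shE6AP and at 54.1, 55.4 and 57.9 CPM in wobble, so 26.1% of the control level was left (CPM, counts scaled to library size with TMM factors). All 6 epithelial markers were above 1 CPM in every library, with a summed level of 2159 to 2211 CPM in shE6AP and 2789 to 2925 CPM in wobble. KRT7 made the difference in that sum (1108 to 1124 CPM against 1863 to 1978 CPM). KRT19 (192 to 200 against 213 to 217 CPM) and CDH1 (25.2 to 28.1 against 29.2 to 31.6 CPM) were also lower in every shE6AP library. KRT8, KRT18 and EPCAM were higher in every shE6AP library. Of the luminal prostate markers, TMPRSS2 was at or below 0.946 CPM in every library. The summed level of 4 blood markers was 5.29 to 6.33 CPM in shE6AP and 3.35 to 4.42 CPM in wobble, of 6 fibroblast markers 17.8 to 19.2 and 13.6 to 16.8 CPM, and of 4 endothelial markers at most 1.42 CPM. The part of these markers in the results below was not tested.

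With the E6AP hairpin, most cytosolic synthetase transcripts were modestly higher, 2 of them (QARS and WARS) were clearly lower, and the mitochondrial enzymes went both ways. Of the 20 cytosolic genes 12 rose, 6 fell and 2 did not pass. Of the 15 mitochondrial genes analysed 5 rose, 7 fell and 3 did not pass, and both scaffold genes rose (quasi-likelihood test of edgeR, p adjusted by Benjamini-Hochberg, threshold 0.05). Calls were frequent in this experiment: 59% of all genes tested passed, with 28.6% of all genes tested higher and 30.4% lower. Among genes at least as abundant as the lowest member, 72.5% passed, 34.4% higher and 38% lower. Read against these shares, of all cytosolic genes 90% passed, 60% higher and 30% lower. Of all mitochondrial genes analysed 80% passed, 33.3% higher and 46.7% lower. The median log2 fold change was 0.16 over the cytosolic genes, -0.07 over the mitochondrial genes and 0.01 over all genes tested. In bulk RNA, fewer cells with a transcript and less transcript per cell cannot be told apart.

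**Figure D1:**
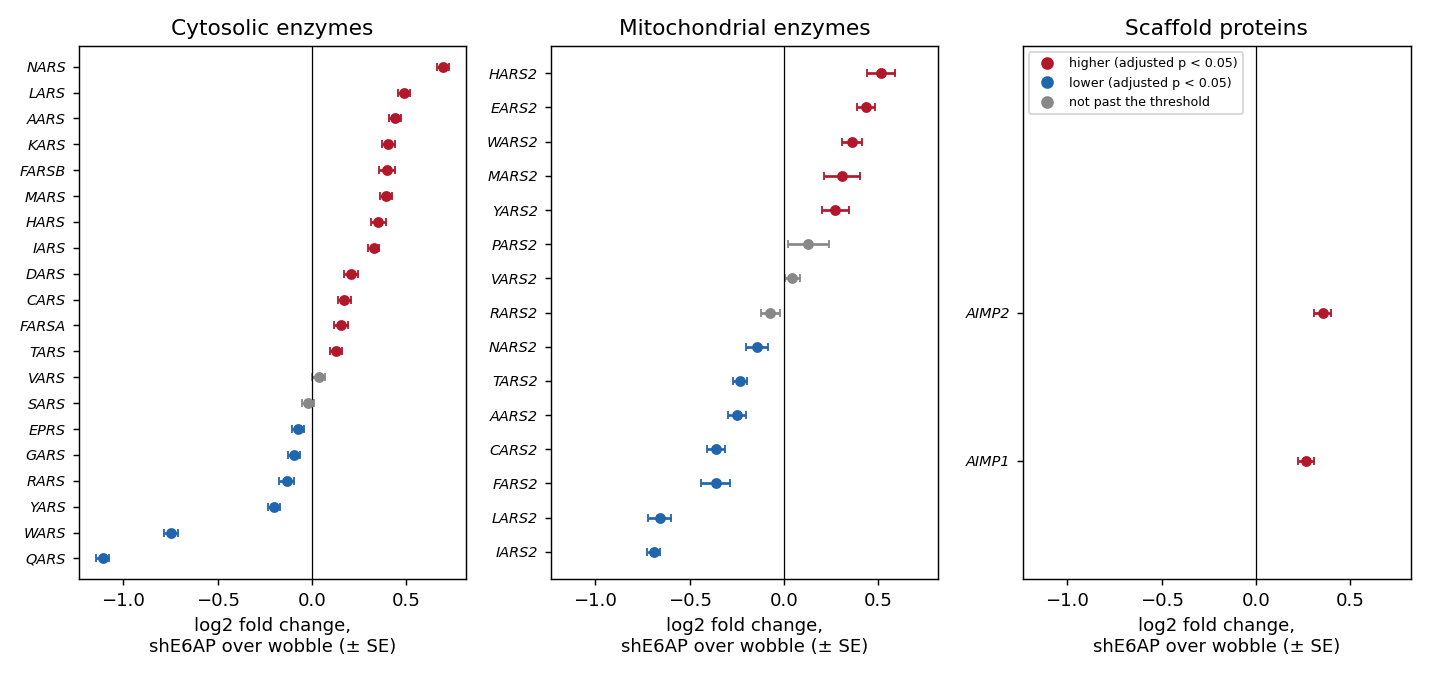
For each cytosolic enzyme, mitochondrial enzyme and scaffold protein, the horizontal axis gives the log2 difference between shE6AP and wobble with its SE as error bar; red genes were higher, blue lower and grey not past an adjusted p of 0.05. The cytosolic values run from -1.11 for QARS to 0.69 for NARS and the mitochondrial ones from -0.69 for IARS2 to 0.51 for HARS2.

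Most of these changes were small. Against a fold of 1.2 (edgeR's glmTreat), 8 cytosolic genes rose and 2 fell, and 3 mitochondrial genes rose and 3 fell, where 13.1% of all genes rose and 15.9% fell. Libraries of a group differed little, with a common biological coefficient of variation of 2.77%. If that variation were 20%, 4 of the 37 genes would pass, namely NARS, QARS, WARS and IARS2, where 11.5% of all genes would.

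QARS, the cytosolic glutaminyl-tRNA synthetase, changed most. Its level was 114, 114 and 113 CPM in shE6AP and 250.03, 247 and 240.3 CPM in wobble. The groups lay far apart, and 46.4% of the control level was left. The log2 fold change was -1.11 (SE 0.0335, adjusted p = 3.17e-29), and over the alternative settings it stayed between -1.13 and -1.08. WARS, the tryptophanyl enzyme, which interferon gamma is known to induce, was at 95.2, 99.6 and 91.7 CPM in shE6AP against 156, 166 and 159 CPM in wobble. No shE6AP library reached a wobble library, and 59.7% of the control level was left (log2 fold change -0.75, SE 0.0365, adjusted p = 1.07e-21).

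The other 4 cytosolic genes that fell did so by less than 0.25 on the log2 scale. YARS, the tyrosyl enzyme, had a log2 fold change of -0.20 (SE 0.0317, adjusted p = 3.68e-07). RARS, the arginyl enzyme, was at 91.0% of wobble, GARS, the glycyl enzyme, at 93.5% and EPRS at 94.9%. The last of these was near the threshold: EPRS (adjusted p = 0.0354) no longer passed with RLE, upper-quartile or library-total scaling, with adjusted p from 0.00663 to 1 over all alternatives. It also lost the call without shE6AP library 1 (adjusted p = 0.0818) or 3 (0.114) and without wobble library 2 (0.0621) or 3 (0.0763). GARS (adjusted p = 0.00653) lost the call without shE6AP library 3 (0.0611), within 0.000339 to 1 over all alternatives. SARS, the seryl enzyme, and VARS, the valyl enzyme, overlapped between groups, at 98.6% and 102% of wobble.

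NARS, the asparaginyl-tRNA synthetase, rose most among the cytosolic genes. It was at 295, 291 and 292 CPM in shE6AP and 182, 181 and 181 CPM in wobble, a log2 fold change of 0.69 (SE 0.0317, adjusted p = 9.91e-23). Its libraries were nearly identical within each group. LARS, the leucyl enzyme, which is also known as a leucine sensor of the mTORC1 pathway, was at 357, 358 and 366 CPM against 253, 254 and 265 CPM (log2 fold change 0.49, SE 0.0320). AARS, the alanyl enzyme, was the member with most reads, at 779.7, 785 and 759.9 CPM against 583, 563 and 566 CPM (log2 fold change 0.44, SE 0.0313). For both genes every shE6AP library was above every wobble library.

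**Figure D2:**
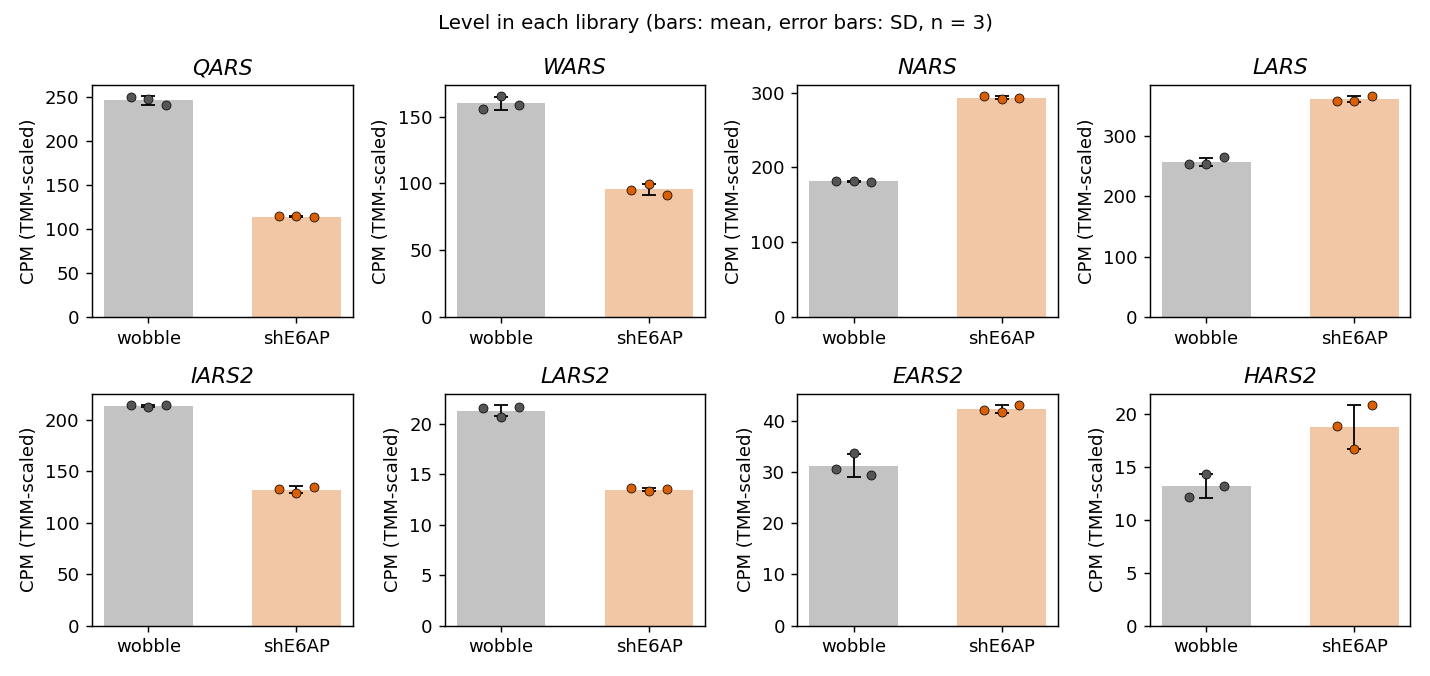
Level in CPM (vertical axes) of 8 synthetase genes in each library of wobble and shE6AP; points are libraries, bars the mean and error bars the SD of 3 libraries. QARS, WARS, IARS2 and LARS2 are lower and NARS, LARS, EARS2 and HARS2 higher in all 3 shE6AP libraries.

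Rises of 0.33 to 0.40 on the log2 scale followed in 5 more cytosolic genes. KARS, the lysyl enzyme, was at 188, 189 and 176 CPM in shE6AP and 142, 136 and 139 CPM in wobble (log2 fold change 0.40). The table also lists the pseudogenes KARSP1 and KARSP2, each with 4 reads over all libraries. FARSB, the beta subunit of the phenylalanyl enzyme, was at 53.4, 56.3 and 53.0 CPM against 40.7, 40.5 and 42.0 CPM (0.40). MARS, the methionyl enzyme, was at 522, 519 and 514 CPM against 399, 395 and 390.1 CPM (0.39). In each of these genes the groups stayed apart. HARS, the histidyl enzyme, was at 67.1, 67.9 and 68.6 CPM against 55.0, 51.5 and 53.1 CPM (0.35). IARS, the isoleucyl enzyme, was at 497, 482 and 503 CPM against 393, 394 and 396 CPM (0.33). The adjusted p of these 5 ran from 7.42e-15 for MARS to 2.37e-10 for HARS. DARS (aspartyl), CARS (cysteinyl), FARSA (the alpha subunit of the phenylalanyl enzyme) and TARS (threonyl) rose by 0.21, 0.17, 0.15 and 0.13. Both subunits of the phenylalanyl enzyme thus rose, FARSA to 111% and FARSB to 132% of wobble.

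Summed over the 20 cytosolic genes, the level was 5384, 5403 and 5342 CPM in shE6AP and 4891, 4832 and 4869 CPM in wobble, 111% of the control. Summed over the 15 mitochondrial genes, it was 503, 492 and 509 CPM against 595, 592 and 587 CPM, 84.8% of the control. The sums weight abundant genes, and IARS2 alone held 132 CPM of the mitochondrial sum in shE6AP and 214 CPM in wobble.

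Split by the fold of the catalytic domain, the cytosolic genes gave different counts. Of 10 class II genes 8 rose, 1 fell (GARS) and 1 did not pass (SARS), with a median log2 fold change of 0.28. Of 10 class I genes, EPRS counted among them, 4 rose (CARS, IARS, LARS and MARS), 5 fell (EPRS, QARS, RARS, WARS and YARS) and 1 did not pass (VARS), with a median of -0.02. Of 9 mitochondrial class I genes 4 rose, 3 fell and 2 did not pass (44.4% higher, 33.3% lower). Of 6 mitochondrial class II genes 1 rose, 4 fell and 1 did not pass. Beside these counts, 28.6% of all genes tested were higher and 30.4% lower. Among genes at least as abundant as the lowest member, 34.4% were higher and 38% lower. No test of these differences was made.

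The multisynthetase complex joins EPRS, IARS, LARS, MARS, QARS, RARS, KARS and DARS with the scaffold proteins AIMP1, AIMP2 and EEF1E1. All 11 genes passed, 8 higher and 3 lower (QARS, RARS and EPRS), with a median log2 fold change of 0.28, where 59% of all genes and 72.5% of those at least as abundant as the lowest member passed. Against a fold of 1.2, 5 of the 11 were higher and 1 lower, and the call of EPRS is the uncertain one described above. AIMP1, whose protein is also secreted as a cytokine precursor, was at 55.2, 49.7 and 52.7 CPM in shE6AP and 43.9, 43.6 and 44.2 CPM in wobble (log2 fold change 0.26, SE 0.0430, adjusted p = 1.05e-06). AIMP2, a scaffold around which the complex is built, was at 42.6, 41.5 and 43.8 CPM against 34.2, 32.4 and 33.5 CPM (log2 fold change 0.35, SE 0.0451, adjusted p = 4.83e-09). Neither gene's groups overlapped. EEF1E1, the third scaffold gene, rose by 0.28. In the GENCODE 29 annotation 38.7% of the exon bases of AIMP2 overlap EIF2AK1 on the opposite strand and 11.7% of those of AIMP1 overlap TBCK; the library kit does not mark strand and how overlaps were counted is not given in the sources used here, so these levels are uncertain.

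IARS2 and LARS2, the mitochondrial isoleucyl and leucyl enzymes, fell most among the mitochondrial genes. IARS2 was at 133, 129 and 135 CPM in shE6AP and 214, 212 and 215 CPM in wobble, 61.9% of the control (log2 fold change -0.69, SE 0.0333, adjusted p = 6.24e-22). LARS2 was at 13.6, 13.3 and 13.5 CPM against 21.6, 20.6 and 21.7 CPM, 63.3% of the control (-0.66, SE 0.0613, adjusted p = 1.23e-12). Both were cleanly separated although LARS2 had only 284 to 654 reads per library. FARS2, the mitochondrial phenylalanyl enzyme, was at 9.40, 9.37 and 8.59 CPM against 11.9, 11.3 and 11.99 CPM (-0.36, adjusted p = 7.00e-05). CARS2, the cysteinyl enzyme, was at 27.0, 25.5 and 28.5 CPM against 34.3, 34.6 and 35.4 CPM (-0.36, adjusted p = 2.81e-08). The groups of both genes were again apart.

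AARS2, the mitochondrial alanyl enzyme, was at 28.2, 26.4 and 26.6 CPM in shE6AP and 32.2, 33.1 and 31.5 CPM in wobble (-0.25, adjusted p = 2.76e-05). TARS2, the threonyl enzyme, fell to 85.1% of wobble and NARS2, the asparaginyl enzyme, to 90.6%. NARS2 was the least certain of these (adjusted p = 0.0308). It no longer passed with DESeq2 (adjusted p = 0.123), with upper-quartile scaling (0.0822), without shE6AP library 1 (0.104) or 2 (0.0775) or without wobble library 1 (0.0764), within 0.0167 to 1 over all alternatives. RARS2, the arginyl enzyme, had all shE6AP libraries below wobble but did not pass (adjusted p = 0.204).

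HARS2, the mitochondrial histidyl enzyme, had the largest rise among the mitochondrial genes. It was at 18.9, 16.7 and 20.9 CPM in shE6AP and 12.1, 14.4 and 13.2 CPM in wobble (log2 fold change 0.51, SE 0.0721, adjusted p = 4.47e-08). Its groups did not overlap, with an SD of 2.09 CPM around a mean of 18.8 CPM in shE6AP. EARS2, the mitochondrial glutamyl enzyme, was at 42.1, 41.8 and 43.2 CPM against 30.6, 33.7 and 29.5 CPM (0.44, adjusted p = 1.34e-10). WARS2, the tryptophanyl enzyme, was at 28.0, 28.6 and 25.1 CPM against 21.4, 21.0 and 21.3 CPM (0.36, adjusted p = 2.83e-07). Both rose in every library. MARS2, the methionyl enzyme, was at 7.57, 7.68 and 7.47 CPM against 6.74, 5.92 and 5.65 CPM (0.31, adjusted p = 0.00425). YARS2, the tyrosyl enzyme, was at 14.6, 13.5 and 14.7 CPM against 12.1, 10.9 and 12.7 CPM (0.27, adjusted p = 0.00109). For these less abundant genes the nearest libraries of the groups differed by under 1 CPM. VARS2 and PARS2, the valyl and prolyl enzymes, overlapped between groups; PARS2 had 112 to 138 reads per library and an SE of 0.108.

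The 2 enzymes for the same amino acid often went opposite ways. Of 15 pairs of a cytosolic and a mitochondrial enzyme, both members passed with opposite signs in 10, both rose in 2 (MARS with MARS2 and HARS with HARS2) and both fell in 0. In 7 of the 10 the cytosolic gene rose while the mitochondrial gene fell: leucine, isoleucine, asparagine, alanine, cysteine, phenylalanine and threonine. In the other 3 the cytosolic gene fell while the mitochondrial gene rose: tryptophan, tyrosine and, with EPRS, glutamate. EPRS enters the list with both EARS2 and PARS2, so not all pairs are independent, and its call is near the threshold. The count of 10 rests on small changes: it was 8 to 10 over other scalings, filters, tools, the replicate block and libraries left out, 3 against a fold of 1.2 and with an assumed variation of 0.1 (leucine, isoleucine and tryptophan in both) and 0 with an assumed variation of 0.2. No share over other gene pairs was computed, so neither this count nor that of separated ratios is read against a background for pairs.

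The ratio of reads on the 2 genes of a pair, taken within each library, does not depend on scaling. For LARS over LARS2 it was 26.3, 26.9 and 27.1 in shE6AP and 11.7, 12.3 and 12.2 in wobble, a difference of 1.15 on the log2 scale (SE 0.0270). For IARS over IARS2 it was 3.74, 3.73 and 3.72 against 1.83, 1.86 and 1.84, a difference of 1.02 (SE 0.00588). Both ratios were higher in every shE6AP library, with little spread within a group. For WARS over WARS2 it went the other way, with 3.40, 3.48 and 3.65 against 7.30, 7.88 and 7.45, a difference of -1.10 (SE 0.0443). The ratio was higher in every shE6AP library in 7 pairs, lower in 4 (tryptophan, tyrosine, and EPRS over EARS2 and over PARS2) and overlapped in 4 (MARS, VARS, RARS and HARS with their partners). An exact two-sided permutation test gave p = 0.1 in each of the 11 separated pairs, the smallest that 3 against 3 allow, and 0.136 after Benjamini-Hochberg adjustment over the 15 pairs.

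**Figure D3:**
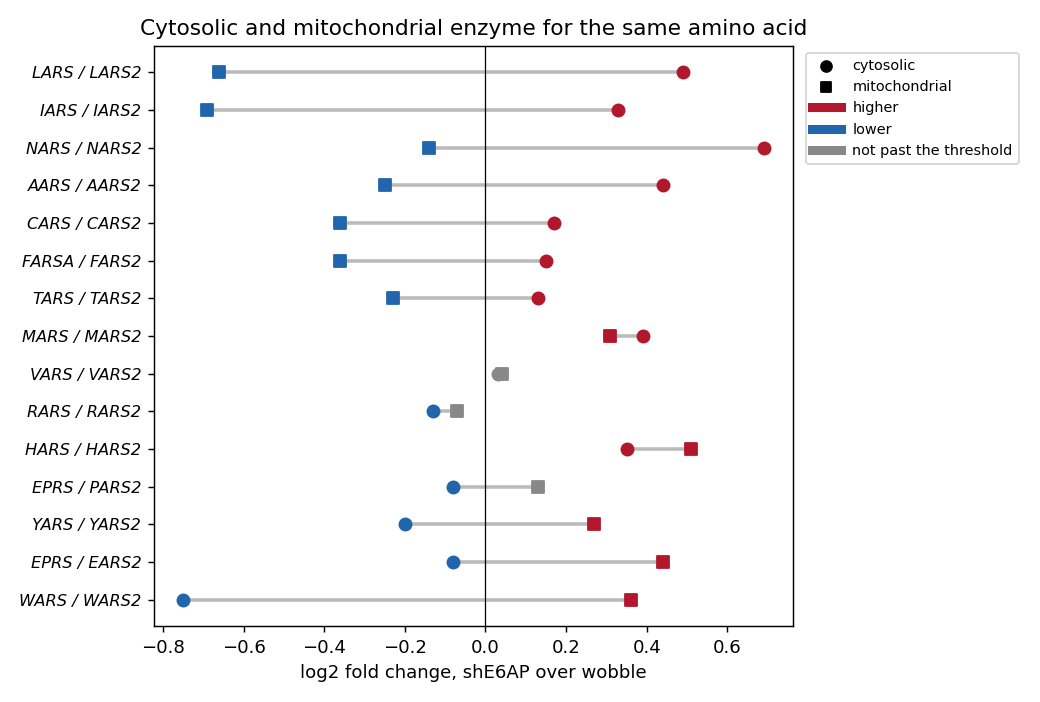
Pairs of a cytosolic (circles) and a mitochondrial (squares) enzyme of the same amino acid, ordered by their difference, with the log2 fold change between shE6AP and wobble on the horizontal axis; red was higher, blue lower and grey not past an adjusted p of 0.05. LARS and LARS2 lie 1.15 apart with the cytosolic gene higher, WARS and WARS2 lie 1.10 apart with it lower.

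Per length of exon, the cytosolic genes were the more abundant in wobble, with a median of 59.3 CPM per kb (12.2 for FARSB to 191 for GARS) against 7.004 CPM per kb for the mitochondrial genes (1.92 for PARS2 to 60.0 for IARS2). In shE6AP the medians were 70.8 and 7.03 CPM per kb. IARS2 was the exception among mitochondrial genes: its level in wobble was above the cytosolic median, and it then fell to 37.2 CPM per kb. The next mitochondrial gene in wobble, TARS2, was at 25.9 CPM per kb. Exon lengths came from GENCODE 29, not from the annotation used for counting, so levels per length are approximate.

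**Figure D4:**
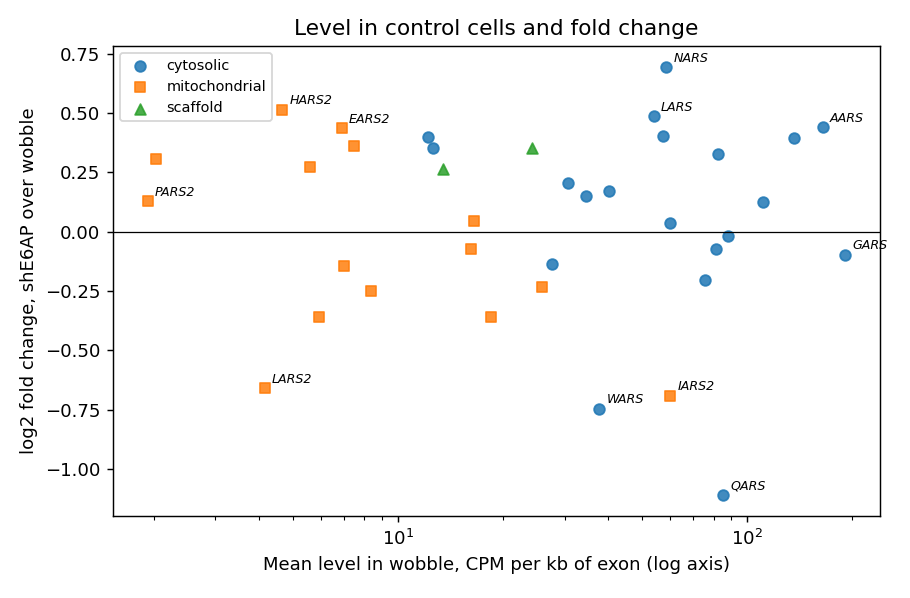
Mean level in wobble in CPM per kb of exon (horizontal axis, log scale) and log2 change in shE6AP relative to wobble (vertical axis) for the 37 genes; circles are cytosolic, squares mitochondrial and triangles scaffold genes. Rises and falls occur at low and high levels, and the lowest point is QARS at 85.1 CPM per kb.

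The response element through which ATF4 and C/EBP factors act has the core TGATGNAA, and it was searched on both strands of RefSeq promoters (GRCh38.p14, 250 bases before to 50 after each listed start). Promoters were listed for 32 of the 38 genes, 16 cytosolic, 14 mitochondrial (SARS2 among them) and 2 scaffold genes. The core was present in 7 of the 16 cytosolic genes and in 1 of the 14 mitochondrial genes, YARS2, against 4.46% of all genes and 3.62% of all windows. No match overlapped another of the motifs searched. The 7 cytosolic matches are shown because 6 of the 12 cytosolic genes that rose have one. No promoter was listed for DARS, LARS, VARS and YARS, so DARS and LARS, which also rose, could not be searched. Each stretch of 30 bases reads 5′ to 3′ on the strand on which the core, in capitals, is written as above.
AARS: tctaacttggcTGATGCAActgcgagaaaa
CARS: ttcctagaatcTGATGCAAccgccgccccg
GARS: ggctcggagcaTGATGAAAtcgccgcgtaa
IARS: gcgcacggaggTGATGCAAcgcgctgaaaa
MARS: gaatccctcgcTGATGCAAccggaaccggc
NARS: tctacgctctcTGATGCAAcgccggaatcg
TARS: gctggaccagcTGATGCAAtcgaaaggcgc

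These stretches lie at chr16:70289675-70289704 (+) for AARS, chr11:3057407-3057436 (+) for CARS, chr7:30594834-30594863 (-) for GARS, chr9:92293692-92293721 (+) for IARS, chr12:57488053-57488082 (-) for MARS, chr18:57621804-57621833 (-) for NARS and chr5:33440956-33440985 (-) for TARS, all in GRCh38.p14; the reads were aligned to hg19 and no coordinate was converted. Counted from the start, the core began at position -187 in AARS and between -33 and 15 in the other 6. Of the 7 genes 6 rose, with log2 fold changes of 0.44 for AARS, 0.17 for CARS, 0.33 for IARS, 0.39 for MARS, 0.69 for NARS and 0.13 for TARS, and GARS fell (-0.10). Among the 9 cytosolic genes with a listed promoter and no match, FARSA, FARSB, HARS and KARS rose, EPRS, QARS, RARS and WARS fell and SARS did not pass. This side-by-side count has no test, and a match is only a run of letters.

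Of the other motifs searched, the ETS core CCGGAAGT was found in 5 of 16 cytosolic and 3 of 14 mitochondrial genes (4.95% of all genes), the E-box CACGTG in 1 and 3 (8.77%), CCAAT in 7 and 9 (39.7%) and the NRF1 core GCATGCGC in 0 and 2 (3.68%). HARS and HARS2, the cytosolic and mitochondrial histidyl enzymes, were the only members that are direct neighbours in RefSeq. They are read in opposite directions from starts with 84 bases between them, at chr5:140691371-140691454 in GRCh38.p14. The ETS core occurs at both ends of that stretch, and the matches are shown because the 2 genes share them and both rose, by 0.35 and 0.51. Among the other members with this core, CARS, NARS, TARS and EARS2 rose, WARS fell (-0.75) and PARS2 did not pass. A link between the core and the changes was not tested. The core is in capitals.
near the HARS start, chr5:140691361-140691390 (-): cgactcgatagCCGGAAGTcatccttgctg
near the HARS2 start, chr5:140691436-140691465 (+): tccggctcctcCCGGAAGTgccgaagctgg

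In GENCODE 29, 14.2% of the exon bases of HARS2 and 9.49% of those of HARS overlap the other gene on the opposite strand, so some reads cannot be assigned to either. The ratio of HARS to HARS2 reads overlapped between groups, at 3.56, 4.07 and 3.29 in shE6AP and 4.53, 3.59 and 4.03 in wobble.

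Other genes of the pathway were read from lists of gene names. In the GCN2 and ATF4 response, 17 of 30 genes rose, 8 fell and 5 did not pass, with a median log2 fold change of 0.12. That is 83.3% past the threshold, 56.7% higher and 26.7% lower, beside the 28.6% higher and 30.4% lower of all genes. Among genes at least as abundant as the lowest synthetase, 72.5% passed, 34.4% higher and 38% lower. The list was not tested as a set. Named by smallest p, TRIB3, a pseudokinase, rose by 0.94, DDIT4, an inhibitor of mTORC1, fell by 0.76 and SLC7A5, a leucine transporter, rose by 0.55. Of 16 other genes tested, of tRNA charging and of steps around it, 6 rose and 5 fell (median 0.05). EEF1E1, given above with the complex, is among them. SECISBP2, a factor of selenoprotein translation, rose by 0.58, SEPHS2, a selenophosphate synthetase, fell by 0.45 and PTRH2, a peptidyl-tRNA hydrolase, rose by 0.49.

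Genes that make tRNA went both ways. Of 26 genes of tRNA maturation and export, 7 rose and 9 fell (median 0.04). TSEN34, a subunit of the splicing endonuclease, fell by 0.44, KIAA0391, the nuclease subunit of mitochondrial RNase P, fell by 0.38 and TRMT10C, its methyltransferase subunit, rose by 0.47. Of 24 genes of RNA polymerase III and its factors, 6 rose and 10 fell (median 0.01). GTF3C2, a subunit of TFIIIC, fell by 0.71, while the polymerase subunits POLR3D and POLR3G rose by 0.88 and 0.77. The charging, maturation and polymerase III lists had 68.8%, 61.5% and 66.7% of their tested genes past the threshold, beside 59% of all genes and 72.5% of those at least as abundant as the lowest synthetase.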

How the data were processed

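The authors deposited 1 table of raw counts, whole numbers of reads per gene symbol in 1 column per library. Per the submitters' processing notes, hg19 was the build, TopHat2 2.0.13 with Bowtie2 the aligner and HTSeq the counter; the annotation and the strand option were not given in the sources used here. HTSeq summary rows (14.6% to 16.0% of reads outside genes, 2.05% to 2.21% ambiguous), 1 row with a blank name (at most 4.59e-05%) and 1 name with no values were left out. All genes of the deposited count table were fitted in edgeR 4.0.16 under R 4.3.3 (filterByExpr, TMM, quasi-likelihood test, shE6AP relative to wobble), with Benjamini-Hochberg adjustment over 19433 genes and a threshold of 0.05. The SE was derived from the log2 fold change and its F statistic. Chi-square per gene was 1.76 to 3.52 within groups, so no library was treated as a repeat of another. The procedure was tested on simulated data of 19433 genes, with 50 changed at each fold. It recovered 54% of them at a fold of 1.2, 74% at 1.5, 92% at 2 and 96% at 4. Of its calls, 6.51% were unchanged genes. Far more genes were called in the real data (11467), so these shares need not hold for them.

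The members and gene lists were chosen with earlier results of these data known. All members could be named, with values in every library for those past the threshold whose log2 fold change was at least 0.25 either way, and up to 3 passing genes of each other list by smallest p. Older symbols were matched through RefSeq synonyms where unambiguous. Motifs were read from RefSeq promoters. Alternatives were other scalings, DESeq2 1.42.0, limma-voom (limma 3.58.1), other filters, a replicate block, glmTreat, each library left out, other membership and, added after seeing the data, assumed variation of 0.1 and 0.2. A planned change of the mitochondrial list and some values of genes outside the members are not reported here.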

Additional observations from a re-analysis of the deposited data

How the results depend on the processing

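All alternatives kept the direction of every member that passed. With glmTreat against a fold of 1.2 the cytosolic genes that fell numbered 2, and the mitochondrial genes 3 higher and 3 lower; AIMP1 (log2 fold change 0.263) no longer passed. With assumed variation of 0.1, 2 cytosolic genes fell, 3 mitochondrial genes rose and 4 fell, and AIMP1 (0.259) did not pass. With assumed variation of 0.2, 1 cytosolic gene rose and 2 fell, 0 mitochondrial genes rose and 1 fell, and neither AIMP1 (0.259) nor AIMP2 (0.354) passed. These 3 settings ask for larger changes by construction. The median of the cytosolic genes was 0.190 with upper-quartile scaling and 0.139 with no low-count filter, and that of the mitochondrial genes -0.0448 and -0.0959. Leaving out 1 library gave cytosolic medians of 0.150 to 0.166 and mitochondrial medians of -0.0922 to -0.0614, with 12 cytosolic genes higher and 4 to 6 lower and 5 mitochondrial genes higher and 6 to 7 lower. Adding the replicate number as a block left these counts at 12, 6, 5 and 7, and calls over all genes rose from 11467 to 11979; deviations of same-numbered libraries correlated at 0.0166 to 0.0438, so the numbers were not taken as pairs. In the shallowest library PARS2 had 114 reads, which limits what can be seen for the rarest genes.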

Other observations

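The protein-coding neighbours of the members that changed most were read after their values were seen, by RefSeq gene order. Beside QARS, USP19 had a log2 fold change of -0.37, LAMB2 of -0.60, CCDC71 of -0.43, NDUFAF3 of -0.50, QRICH1 of -0.11 and IMPDH2 of 0.03 (not past the threshold), all nearer 0 than the -1.11 of QARS. Beside NARS, FECH (0.55), ATP8B1 (1.23) and NEDD4L (1.10) rose as NARS did, while ONECUT2 fell (-0.68). IARS2 lies beside BPNT1 (-0.41) and RAB3GAP2 (-0.25), which fell with it, and beyond them MARK1 (0.08) did not pass and C1orf115 (0.13) rose, and BPNT1 is the only coding gene between IARS2 and EPRS (-0.08). Beside WARS, WDR25 (-0.38) and SLC25A29 (-0.26) fell, YY1 (0.25) rose and BEGAIN (-0.02) did not pass. Beside LARS2, SACM1L (-0.65) and TMEM158 (-0.65) fell by about as much as LARS2, CDCP1 fell by 0.15, and LIMD1 (0.07), CLEC3B (-0.06) and SLC6A20 (-0.14) did not pass. Whether position has a part in the members' changes was not tested.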
